A study of Homo sapiens with 4 samples.

Results

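The G1 cyclins, CDK4, CDK6 and their inhibitors were followed on 4 arrays of azacytidine (AZA)-treated and vehicle-treated cells. The set held 10 genes, namely the D cyclins CCND1, CCND2 and CCND3, the kinases CDK4 and CDK6, the INK4 inhibitors CDKN2A, CDKN2B, CDKN2C and CDKN2D, and CDKN1B. They were taken by name, as every gene probe of the array that carries one of these gene names, with no threshold on a measured value. This gave 12 probes of the 58185 analysed, for 10 of 43311 target names. CDKN1B and CDKN2A had 2 probes each, and the other 8 genes had 1.

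MDS-L is a human cell line from a myelodysplastic syndrome, and MDS-L/CDA is its AZA-resistant derivative, which the authors made by transducing the CDA gene. Each line was exposed for 72 h to AZA at 1 μM or to its vehicle, DMSO at 0.1%, and 1 array was hybridized for each of the 4 conditions. The labels give the dose as 1 μM in one field and in mM in another, and a treatment field contradicts the title and the source name for 2 samples (MDS-L with AZA, MDS-L/CDA with vehicle), and the title and source name were followed. With 1 array per condition there are no replicates, so no test was possible, and no difference below has a replicate error.

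AZA is a cytidine analogue that is built into nucleic acids and traps DNA methyltransferases, whereas cytidine deaminase, the product of CDA, inactivates such analogues. In G1 phase the D cyclins bind CDK4 or CDK6, and these kinases phosphorylate the retinoblastoma protein, which releases E2F factors and lets cells enter S phase. The INK4 proteins bind CDK4 and CDK6 and keep the cyclin off, and p27, the product of CDKN1B, inhibits cyclin E/CDK2 and also binds cyclin D complexes. CDKN2A and CDKN2B lie side by side on the short arm of chromosome 9 and CDKN2B in particular is known for promoter methylation in myelodysplastic syndromes.

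Since AZA acts on methylation at CpG sites, the bases upstream of the start of transcription are shown for 2 genes whose AZA/vehicle ratio in MDS-L cells passed 2-fold with signal above background on all 4 arrays (CDKN2D, CDK6), for CDKN1B, whose probes differed, and for CDKN2B, which was not detected. Each is 250 bases of RefSeq sequence on GRCh38.p14, 5′ to 3′ on the strand of the gene, with every CpG in capitals. The positions are chr19:10568980-10569229 on the minus strand for CDKN2D, chr7:92836574-92836823 on the minus strand for CDK6 (the first of 2 listed starts), chr12:12717118-12717367 on the plus strand for CDKN1B and chr9:22009306-22009555 on the minus strand for CDKN2B.
CDKN2D: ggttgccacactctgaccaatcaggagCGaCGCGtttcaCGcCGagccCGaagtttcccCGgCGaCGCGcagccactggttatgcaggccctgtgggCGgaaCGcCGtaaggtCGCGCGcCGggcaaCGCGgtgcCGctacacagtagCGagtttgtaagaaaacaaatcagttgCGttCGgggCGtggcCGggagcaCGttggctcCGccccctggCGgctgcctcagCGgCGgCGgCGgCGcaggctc
CDK6: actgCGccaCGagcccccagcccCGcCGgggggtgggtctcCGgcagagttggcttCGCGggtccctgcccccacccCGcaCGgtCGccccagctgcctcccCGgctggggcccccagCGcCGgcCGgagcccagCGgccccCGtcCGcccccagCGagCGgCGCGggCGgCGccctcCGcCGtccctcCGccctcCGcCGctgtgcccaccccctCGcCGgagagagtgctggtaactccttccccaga
CDKN1B: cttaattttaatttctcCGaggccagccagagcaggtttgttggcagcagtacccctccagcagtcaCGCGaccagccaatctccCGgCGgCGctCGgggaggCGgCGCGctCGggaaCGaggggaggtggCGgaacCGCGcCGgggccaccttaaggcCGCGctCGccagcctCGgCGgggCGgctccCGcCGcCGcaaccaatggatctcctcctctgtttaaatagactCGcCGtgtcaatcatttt
CDKN2B: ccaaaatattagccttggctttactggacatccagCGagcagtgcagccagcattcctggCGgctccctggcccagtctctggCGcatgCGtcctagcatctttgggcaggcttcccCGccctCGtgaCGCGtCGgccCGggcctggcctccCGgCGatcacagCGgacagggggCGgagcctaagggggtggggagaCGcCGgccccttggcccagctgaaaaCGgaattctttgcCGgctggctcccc

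These windows hold 33 CpG in CDKN2D, 30 in CDK6, 27 in CDKN1B and 18 in CDKN2B, against a median of 11 and quartiles of 3 and 23 over all 35116 windows of the same length in the table. Windows were given for 8 of the 10 genes, 14 in all, and 11 of the 14 held more CpG than the median of all windows. Their counts ran from 3 at 1 start of CCND3 to 35 at 1 start of CDKN2C. CDKN2D, which was higher with AZA in MDS-L cells, and CDK6, which was lower with AZA, had windows above the upper quartile at the starts shown, and the second window of CDK6 held 23 CpG, equal to that quartile. The GC box GGGCGG, read on both strands, was in 10 of the 14 windows and in 42.6% of all windows. The E2F-type motifs TTTCCCGC and TTTGGCGC, none of which contains another of the 3 motifs, were in 0 of the 14 windows, and in 1.39% and 0.55% of all windows. Methylation was not measured on these arrays.

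Probes of this design are 60 bases long, and their positions below are on hg19, as in the files' own annotation. The 2 probes of CDKN1B start 3821 bases apart, at chr12:12871119-12871178 (probe 1) and chr12:12874940-12874999 (probe 2) on the plus strand, and those of CDKN2A start 2862 bases apart, at chr9:21968039-21968098 (probe 1) and chr9:21970901-21970960 (probe 2) on the minus strand. For both genes the probe with the higher GC content of the pair is shown, since the readings of the CDKN1B probes differ below, again with CpG in capitals.
CDKN1B probe 1: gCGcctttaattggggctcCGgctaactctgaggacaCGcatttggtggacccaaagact
CDKN2A probe 2: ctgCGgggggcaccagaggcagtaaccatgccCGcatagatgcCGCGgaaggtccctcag

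The GC content was 55% in CDKN1B probe 1 and 35% in probe 2, and 66.7% in CDKN2A probe 2 and 40% in probe 1. Which exon or untranslated region each probe lies in was not looked up, since no annotation of hg19 was used here.

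Levels are given as scaled intensity, the background-subtracted brightness of a probe after each array was scaled to the same 75th percentile, here 45.3. They can be compared between arrays for 1 probe but not between probes. On the 4 arrays 32.6% to 36.5% of the probes were well above background by the flag of the scanner software, no spot was saturated, and the lowest scaled intensity well above background was 8.61 to 13.4. A ratio of at least 2 in either direction, with the brighter array well above background, is called higher or lower here. A signal below background enters as a bound, at the higher of itself and that lowest value. The one error available comes from 300 probes with 10 spots on each array, and the median SD between such spots on the log2 scale was 0.0986 to 0.384 by brightness and array. It is given below as the spot error of a log2 ratio, and it covers neither hybridization nor culture. RNA of whole cultures was measured, so fewer cells of a type and less RNA per cell cannot be told apart.

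Of the haematopoietic progenitor markers, 8 of 8 were above background on both MDS-L arrays and 7 of 8 on both MDS-L/CDA arrays, and their summed scaled intensity was 5748 to 6819. One of them, KIT, the stem cell factor receptor, was 47.3-fold higher with AZA in MDS-L cells (22.8 with vehicle, 1080.0 with AZA). In MDS-L/CDA cells KIT was 3.58-fold higher (15.7 and 56.2), and its part in the results below was not tested. KIT was the 1 marker of these 8 that reached 2-fold with AZA in MDS-L cells, where 12.8% of all genes tested did. Of the 8 ratios 5 were above 1 and 3 below, the latter at CD34 (0.728), PTPRC (0.758) and ANPEP (0.896). The probe of CDA, the transduced gene, gave 4.77, 4.27, 4.98 and 6.60 and stayed below background throughout, so it does not check the labels of the line, and whether it lies inside the transduced sequence is not given in the sources used here. Of 8 markers of T cells, B cells, fibroblasts and epithelium, 3 were above background with AZA in MDS-L cells and 2 on each of the other arrays. CD3E, COL1A1, COL1A2, EPCAM and KRT19 were below background on every array, whereas CD3D was at least 23.5-fold higher with AZA in MDS-L cells. The summed scaled intensity of these 8 markers was 677 with vehicle and 797 with AZA in MDS-L cells, and 769 with vehicle and 754 with AZA in MDS-L/CDA cells, and its part in the results below was not tested.

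In MDS-L cells, AZA went with higher CCND1 and CDKN2D and with lower CDK6 and CDKN1B, the last at 1 of its 2 probes. No probe of the set reached 2-fold in MDS-L/CDA cells. Of the 11 probes tested in MDS-L cells 2 were higher and 2 were lower, where 12.7% of all 22261 probes tested passed in either direction, 6.54% higher and 6.15% lower. Of the 10 probes tested in MDS-L/CDA cells 0 passed, where the share of all 19871 probes was 5.68%, with 2.48% higher and 3.2% lower. At a ratio of 1.5 the counts were 6 in MDS-L and 1 in MDS-L/CDA cells. The share of all probes at that ratio was not computed, so these counts have no background beside them.

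**Figure D1:**
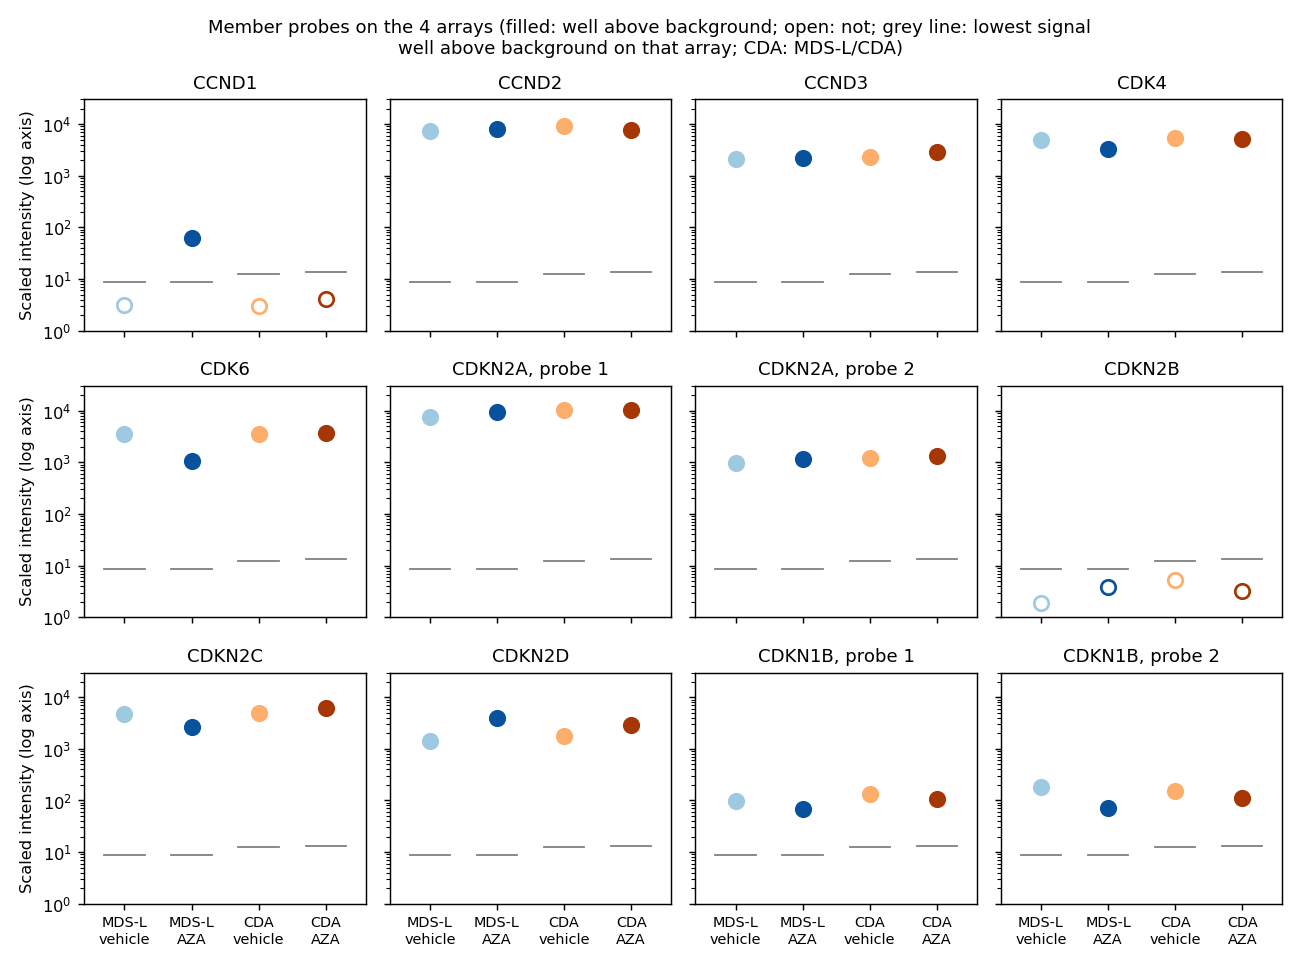
Scaled intensity (log axis) of each of the 12 probes on the 4 arrays, filled where the signal was well above background and open where it was not, with a grey line at the floor of that array. CCND1 is filled with AZA in MDS-L cells only, at 63.5, CDKN2B is open on every array, and CDK6 is lowest with AZA in MDS-L cells.

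Among the D cyclins, CCND1 was the one that differed. Its probe (chr11:69468233-69468292, plus strand) had a scaled intensity of 3.17 with vehicle and 63.5 with AZA in MDS-L cells, and 2.95 with vehicle and 4.17 with AZA in MDS-L/CDA cells. Only the MDS-L AZA array was well above background, and the other 3 lay below the floor of their array. CCND1 was therefore at least 7.38-fold higher with AZA than with vehicle in MDS-L cells (log2 ratio at least 2.88), and 99.4% of all probes tested in that pair had a lower log2 ratio. No ratio can be given for MDS-L/CDA cells, since both arrays were below background.

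CCND1 is the single gene of the set whose probe was spotted 10 times on each array, which gives a check within the array. With AZA in MDS-L cells all 10 spots were well above background, with a lowest of 46.8, a median of 63.8 and a highest of 75.9. On the other arrays 0 of 10 spots were well above background, and the highest spot was 6.45 with vehicle in MDS-L cells and 3.41 with vehicle and 7.95 with AZA in MDS-L/CDA cells. No spot of the MDS-L AZA array overlapped any spot of the other arrays, but the spots of 1 array share its culture and hybridization. How many of the 300 probes with 10 spots separate in this way is not given here. The SD of the 10 log2 values was 0.21 on the MDS-L AZA array. The level was low, and with a background correction that adds an offset (normexp) the log2 ratio was 0.99, just short of 2-fold.

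**Figure D2:**
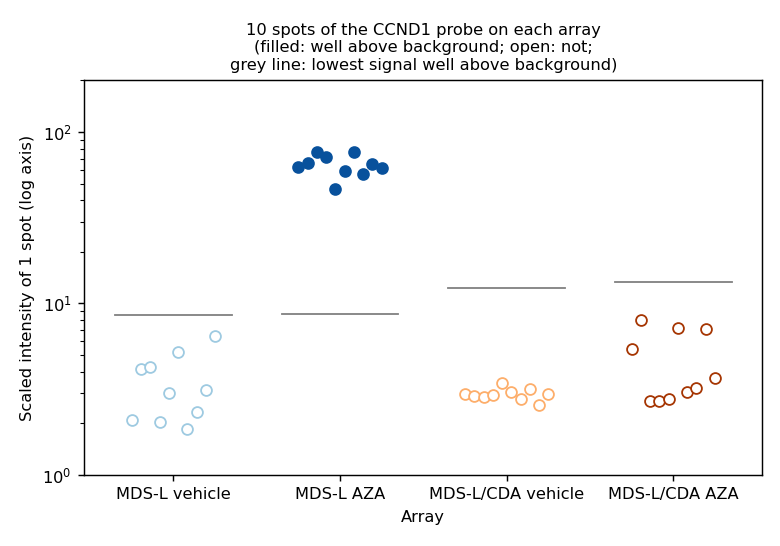
Scaled intensity (log axis) of the 10 spots of the CCND1 probe on each array, with spots well above background filled and the grey line at the lowest signal well above background. The 10 spots of the MDS-L AZA array lie between 46.8 and 75.9, and every spot of the other arrays lies at or below 7.95.

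CCND2 and CCND3, the other D-type cyclins, were measured on all 4 arrays and stayed within 2-fold. The CCND2 probe (chr12:4414040-4414099, plus strand) gave 7500.2 with vehicle and 8129 with AZA in MDS-L cells, and 9103 with vehicle and 7564 with AZA in MDS-L/CDA cells. Its log2 AZA/vehicle ratio was 0.12 in MDS-L and -0.27 in MDS-L/CDA cells, with spot errors of 0.16 and 0.21. The CCND3 probe (chr6:41903193-41903252, minus strand) gave 2146, 2167, 2275 and 2921 in the same order, so that the MDS-L/CDA AZA array was the highest of the 4. Its ratio was 1.01 in MDS-L and 1.28 in MDS-L/CDA cells. The genes for the 3 D cyclins therefore did not move together with AZA in MDS-L cells.

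CDK6 had a large AZA/vehicle difference in MDS-L cells. Its probe (chr7:92234443-92234502, minus strand) gave a scaled intensity of 3511 with vehicle and 1053 with AZA in MDS-L cells, and 3468 with vehicle and 3650 with AZA in MDS-L/CDA cells. The MDS-L AZA array stood alone, and the other 3 arrays lay between 3468 and 3650. CDK6 was 3.34-fold lower with AZA in MDS-L cells (log2 ratio -1.74, spot error 0.17), and 0.961% of all probes tested had a lower ratio. The ratio in MDS-L/CDA cells was 1.05 (log2 0.07, spot error 0.21). The difference between the lines in the log2 ratio was -1.81, with a spot error of 0.27. CDK6 was called in all 8 alternatives computed for single probes, with log2 ratios in MDS-L cells from -2.28 to -1.49.

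CDK4, the partner kinase that shares the D cyclins and the INK4 inhibitors with CDK6, differed less. Its probe (chr12:58142263-58142322, minus strand) gave 4903 with vehicle and 3241 with AZA in MDS-L cells, and 5401 with vehicle and 5198 with AZA in MDS-L/CDA cells. The MDS-L AZA array was again the lowest, and the ratio of 0.661 (log2 -0.60, spot error 0.16) did not reach 2-fold. In MDS-L/CDA cells it was 0.963. With each array scaled to its median the log2 ratio in MDS-L cells was -1.14, which passes 2-fold. That scaling moved the median log2 ratio of the probes above background on both MDS-L arrays from -0.15 to -0.69.

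The INK4 inhibitors went different ways. CDKN2D encodes p19, and its probe (chr19:10677226-10677285, minus strand) gave 1415 with vehicle and 4031 with AZA in MDS-L cells, and 1742 with vehicle and 2922 with AZA in MDS-L/CDA cells. In both lines the AZA array was the brighter one, and the MDS-L AZA array was the brightest of the 4. CDKN2D was 2.85-fold higher with AZA in MDS-L cells (log2 ratio 1.51, spot error 0.16) and had a ratio of 1.68 (log2 0.75, spot error 0.23) in MDS-L/CDA cells, which was past 1.5 but not past 2. The log2 ratios of the lines differed by 0.76, with a spot error of 0.28. Under median scaling the log2 ratio in MDS-L cells was 0.97, just below the 2-fold line, and in the other 7 alternatives for single probes CDKN2D was called higher.

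CDKN2C encodes p18, and its values with AZA lay on opposite sides of vehicle in the 2 lines. The probe (chr1:51439963-51440022, plus strand) gave 4705 with vehicle and 2671 with AZA in MDS-L cells, and 5029 with vehicle and 6204 with AZA in MDS-L/CDA cells. The AZA array was the lowest of the 4 in MDS-L cells and the highest of the 4 in MDS-L/CDA cells. Neither ratio reached 2-fold, at 0.568 (log2 -0.82, spot error 0.16) in MDS-L and 1.23 (log2 0.30, spot error 0.21) in MDS-L/CDA cells. Of all probes tested, 9.96% had a lower log2 ratio in MDS-L and 76.7% in MDS-L/CDA cells. The difference between the lines was -1.12 on the log2 scale, a 2.17-fold difference between the ratios, with a spot error of 0.26. This difference was not tested, since each ratio rests on 1 array per condition.

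CDKN2A, whose product p16 is the founding INK4 protein and which also encodes ARF, was measured well above background on every array. Probe 1 gave 7560 with vehicle and 9561 with AZA in MDS-L cells, and 10352 with vehicle and 10516 with AZA in MDS-L/CDA cells. Probe 2 gave 956, 1158, 1220 and 1310 in the same order, so both probes put the 4 arrays in the same order. The AZA/vehicle ratios were 1.26 and 1.21 in MDS-L cells and 1.02 and 1.07 in MDS-L/CDA cells. The log2 ratios in MDS-L cells, 0.34 and 0.28 with spot errors of 0.16 and 0.17, were below 2-fold, and they were -0.20 and -0.26 with each array scaled to its median. Neither probe was matched to a transcript, so p16 and ARF cannot be told apart here.

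CDKN2B, the gene for p15 and the neighbour of CDKN2A, was not detected. Its probe (chr9:22008979-22009038, minus strand) gave 1.90 with vehicle and 3.91 with AZA in MDS-L cells, and 5.36 with vehicle and 3.22 with AZA in MDS-L/CDA cells, in each case under the floor of the array. No ratio is given, and a level under the floor of 8.61 to 13.4 was not detectable on these arrays. CDKN2B-AS1, the RNA transcribed from the opposite strand at this locus, gave 14.3, 33.0, 9.55 and 16.2, and was well above background on the MDS-L arrays only. It was 2.31-fold higher with AZA in MDS-L cells, a dim signal that did not pass 2-fold in 2 of 8 alternatives. Of the other genes listed for chromosome 9p21, MTAP, KLHL9 and MLLT3 were measured on all 4 arrays and none reached 2-fold with AZA in either line, while DMRTA1, IFNE and IFNB1 were below background throughout and IFNA1 is not named on the array.

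CDKN1B, the gene for p27, was lower with AZA at 1 of its 2 probes. Probe 2 gave a scaled intensity of 185 with vehicle and 70.7 with AZA in MDS-L cells, and 151 with vehicle and 111 with AZA in MDS-L/CDA cells. The MDS-L AZA array was the lowest, and the ratio was 0.381, or 2.62-fold lower (log2 -1.39, spot error 0.23). Probe 1 gave 99.1, 67.5, 135 and 105, with a ratio of 0.681 (log2 -0.55, spot error 0.25), short of 2-fold. Both probes were thus dimmer with AZA in MDS-L cells, but they disagreed on the size. In MDS-L/CDA cells the ratios were 0.735 at probe 2 and 0.780 at probe 1, with spot errors of 0.33 on the log2 scale. With normexp the log2 ratio of probe 2 in MDS-L cells was -0.91, and with median scaling that of probe 1 was -1.10, so the call depends on these choices at both probes.

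**Figure D3:**
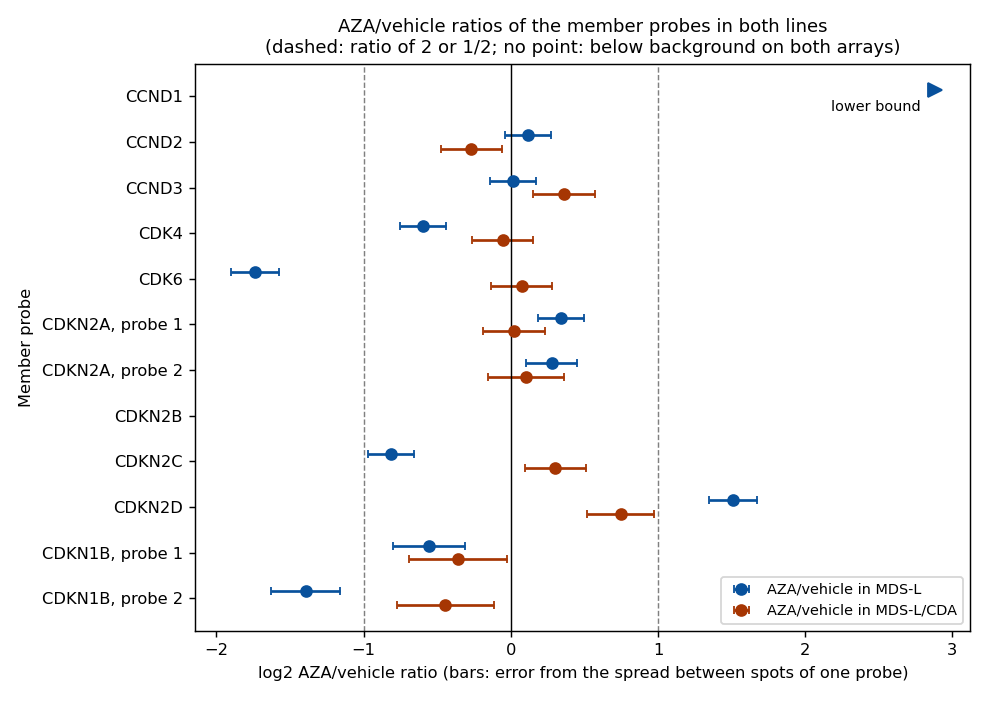
log2 AZA/vehicle ratio of each probe in both lines, with bars for the spot error, dashed lines at 2-fold and an arrow for the lower bound of CCND1; probes below background on both arrays have no point. CDKN2D and CCND1 lie above the upper dashed line and CDK6 and CDKN1B probe 2 below the lower one in MDS-L cells, while every MDS-L/CDA point lies between the lines.

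Setting the lines side by side asks where they differed before AZA and with it. Each array enters 2 of the 4 ratios, so these values are not independent of those above. In vehicle, 0 of the 10 probes tested reached 2-fold between MDS-L/CDA and MDS-L cells, where 4.8% of all 20778 probes did, 2.08% higher and 2.71% lower. The ratios of MDS-L/CDA over MDS-L ran from 0.813 at CDKN1B probe 2 to 1.37 at CDKN2A probe 1, and CDK6 had a ratio of 0.988. With AZA, CDK6 was 3.47-fold higher (log2 ratio 1.79, spot error 0.21) and CDKN2C 2.32-fold higher (log2 1.22, spot error 0.21) in MDS-L/CDA than in MDS-L cells, and CCND1 was at least 4.74-fold lower. These are 3 of 11 probes tested, where 10.7% of all 21668 probes passed, 5.62% higher and 5.1% lower. The call of CDKN2C was kept in 4 of the 8 alternatives. CDK4 had a ratio of 1.60 with AZA, and both CDKN1B probes had 1.56 and 1.57.

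Taken by gene, with the brightest probe of each, the median log2 AZA/vehicle ratio was 0.01 over 9 genes of the set in MDS-L cells and 0.05 over 8 genes in MDS-L/CDA cells, beside -0.13 and 0.02 over all genes tested. The median hides the spread in MDS-L cells, where 5 genes had ratios above 1 and 4 below. For MDS-L/CDA over MDS-L, the median was 0.12 in vehicle and 0.43 with AZA, beside 0.06 and 0.16 over all genes.

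Other genes of the G1/S transition were read from lists of the partner cyclins and inhibitors, the RB and E2F families, regulators of p27, the D cyclins and the INK4 genes, and E2F targets that act in DNA replication. In MDS-L cells, 12.8% of the 17172 genes tested passed 2-fold, 6.73% higher and 6.03% lower. Among 11 partner cyclins, CDK2 and other inhibitors, 2 were higher and 1 was lower. CDKN1C, which encodes the p27 relative p57, gave 1943 with vehicle and 11665 with AZA in MDS-L cells, and 2864 with vehicle and 5039 with AZA in MDS-L/CDA cells. It was higher with AZA in MDS-L cells (log2 ratio 2.59) and had a ratio of 1.76 in MDS-L/CDA cells. CCNA1, the germline cyclin A, was above background with AZA in MDS-L cells only and at least 2.04-fold higher there, a call made in 4 of 8 alternatives. CDC25A, the phosphatase that activates CDK2, was lower, with a ratio of 0.426.

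CDKN1A, the gene for p21, was dim and gave 8.85 with vehicle and 14.2 with AZA in MDS-L cells, and 9.97 with vehicle and 27.2 with AZA in MDS-L/CDA cells. It was above background on both AZA arrays and on neither vehicle array. Its AZA/vehicle ratio was at least 1.60 in MDS-L and at least 2.20 in MDS-L/CDA cells, and the latter was 1 of 10 genes of its list called in MDS-L/CDA cells, where 5.59% of all 15393 genes passed, 2.53% higher and 3.07% lower.

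Downstream of the kinases, the called genes were all lower with AZA in MDS-L cells. Of 12 RB and E2F family genes tested 0 were higher and 2 were lower, E2F5 with a ratio of 0.412 and the repressor E2F8 with 0.465, and the median log2 ratio was -0.47. All 18 E2F targets of DNA replication had ratios below 1, with a median log2 ratio of -0.66 beside -0.13 over all genes, and 3 of them were called. Among these were the replicative helicase subunits MCM3, with a ratio of 0.447, and MCM6, with 0.482. The median of this list stayed below 0 in all 8 alternatives, from -1.20 with median scaling to -0.42 with the authors' value table, and 17 or 18 of the 18 ratios were below 1 in each of them. The share of all genes tested with a ratio below 1 was 58.9% as reported, and 48.1% to 82.0% over the alternatives. In MDS-L/CDA cells 12 of the 18 were below 1, the median was -0.16 and 0 were called.

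Among 17 regulators tested in MDS-L cells 0 were higher and 3 were lower. SKP2 and CKS1B, parts of the ubiquitin ligase that marks p27 for degradation, had ratios of 0.479 and 0.456, and FBXW7, which targets cyclin E, had 0.455. These 3 ratios were close to the 2-fold line, and their calls were kept in 4 (SKP2), 5 (CKS1B) and 6 (FBXW7) of 8 alternatives. FBXW7 was also the 1 regulator called in MDS-L/CDA cells, with a ratio of 0.424. E2F7 and FOXO1 were below background on every array.

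Between the lines with AZA, where 10.7% of 16739 genes passed (5.43% higher, 5.23% lower), 5 of the 18 E2F targets were higher in MDS-L/CDA than in MDS-L cells, with a list median of 0.92 on the log2 scale beside 0.16 over all genes. They were the helicase subunits MCM7 (3.48-fold), MCM6 (2.60-fold) and MCM5 (2.05-fold) and the origin-licensing genes CDC6 (2.79-fold) and ORC1 (2.16-fold). Of 8 alternatives the call was kept in 8 for MCM7, 7 for MCM6, 6 for CDC6, 3 for ORC1 and 2 for MCM5. MCM7 and ORC1 were also higher in vehicle, 2.59-fold and 2.00-fold, where 4.61% of 16015 genes passed, 1.97% higher and 2.64% lower. The vehicle call of ORC1 was kept in 2 of 8 alternatives, with a lowest log2 ratio of 0.40, and that of MCM7 in 7. E2F1 (2.16-fold), E2F8 (2.53-fold), CCNE1 (2.09-fold), CCNA2 (2.29-fold) and SMAD3 (2.09-fold) were higher in MDS-L/CDA cells with AZA, and CDKN1C was lower there, with a ratio of 0.432. The calls of E2F1, CCNE1, CCNA2 and SMAD3 were each kept in 3 of 8 alternatives, that of E2F8 in 6 and that of CDKN1C in 8. TFDP1, whose product pairs with E2F factors, was lower in MDS-L/CDA cells in vehicle, with a ratio of 0.389. With AZA, CDKN2B-AS1 was lower in MDS-L/CDA cells, at most 0.490 of the MDS-L value, and MLLT3 was 2.11-fold higher, calls kept in 5 and 3 of 8 alternatives. With no scaling between arrays, 1 of the 18 E2F targets was higher and 1 was lower. Among all 16739 genes 169 were then higher and 2207 were lower. The list median was 0.41 on the log2 scale, beside -0.31 over all genes.

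**Figure D4:**
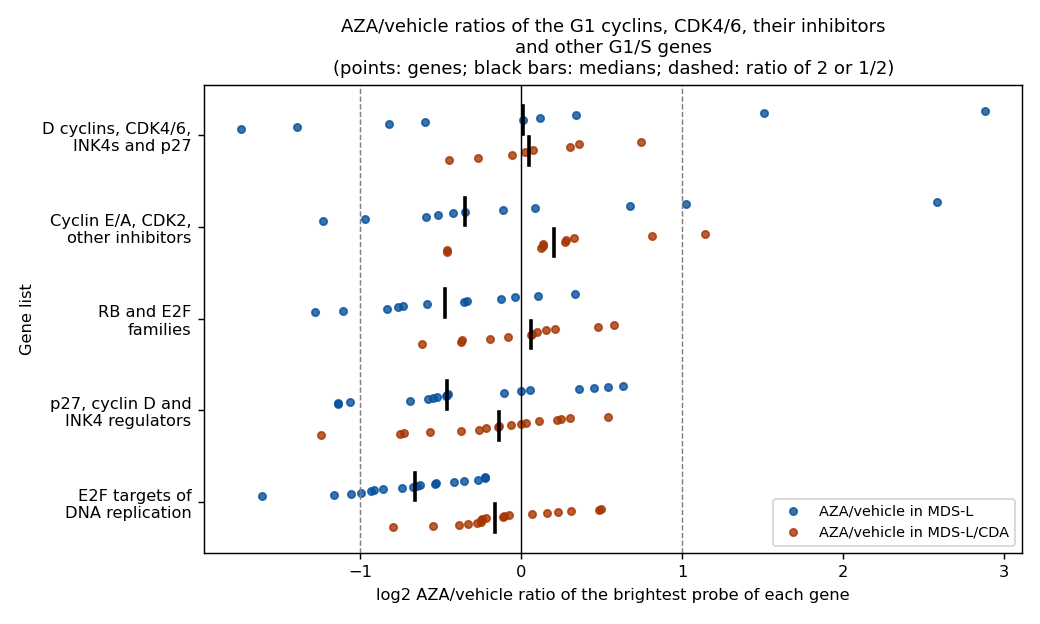
log2 AZA/vehicle ratio of each gene by its brightest probe, for the G1 genes described here (9 tested in MDS-L, 8 in MDS-L/CDA cells) and 4 lists of other G1/S genes, with black bars at the medians and dashed lines at 2-fold; ratios against a signal below background are drawn at their bound. The E2F targets lie to the left of 0 in MDS-L cells, with a median of -0.66, and around it in MDS-L/CDA cells, with a median of -0.16.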

How the data were processed

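The authors hybridized RNA from both lines to 4 one-colour Agilent arrays, 1 per condition. Per the file headers, the deposited scanner output was made with Agilent Feature Extraction 10.7.1.1 on a grid of build hg19, and its values are intensity on a linear scale, background-subtracted within each array and not normalized between arrays. The authors' value table, 51680 probes in all, also holds intensity and was used as an alternative.

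Groups were taken from the source name of each sample. Spots of controls and those flagged as outliers were removed (16 probes), the log2 intensity of a probe is the mean over its spots, and arrays were shifted to a common 75th percentile. A probe was called at a ratio of at least 2, with no p-value, and a signal not well above background was raised to the lowest signal well above background on its array. No fold is given where both arrays were below background. A log2 ratio of a gene is that of its brightest probe. The number of arrays limits the precision. The call was tested on simulated data.

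The 10 genes and the 7 other lists (84 entries) were chosen with earlier results of these data known. All probes of the 10 genes are named, and from the other lists the genes called in any pair, at most 8 per list by size of ratio. Chromosome 9p21 genes and cell type markers are given by range, and by name where below background. Some genes of the lists are counted but not reported by name here. Another 11 ways of scaling, filtering and calling were tried, with 2 more added after seeing the data, the pair centred on its median ratio and the median over spots. Normexp used an offset of 50, and the Z score used 10 bins of brightness. Promoter windows, 250 bases upstream, are RefSeq sequence. Normexp was run with limma 3.58.1 in R 4.3.3, and the other steps with pandas 2.3.3 and numpy 2.4.6 in Python 3.11.15.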

Additional observations from a re-analysis of the deposited data

Results flagged for a closer look

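The AZA/vehicle log2 ratio of CDKN2C was below 0 in MDS-L cells (-0.82) and above 0 in MDS-L/CDA cells (0.30), each by more than its spot error (0.16 and 0.21), so that the lines differed by -1.12. The difference was not tested, since each value rests on 1 array per condition. The sign of both ratios was kept in all 8 alternatives, with values from -1.36 to -0.55 in MDS-L and from 0.17 to 0.32 in MDS-L/CDA cells.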

How the results depend on the processing

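The calls for CDK6, lower with AZA in MDS-L cells and higher in MDS-L/CDA than in MDS-L cells with AZA, were kept in all 8 alternatives computed for single probes, and the other 5 called ratios of the set were lost in at least 1. None of the 336 recomputed probe ratios turned the sign of a call. Among them 238 moved by less than the spot error and 98 by more, where the median spot error of the pair stood in for the bounds of CCND1. Some ratios that were not called did change sign. Between the lines, CCND3 in vehicle kept its sign in 2 of 8 alternatives, and both CDKN2A probes with AZA kept theirs in 3 of 8. With normexp, the count of called probes in MDS-L cells fell from 4 to 2 (CDKN2D and CDK6), CCND1 going to a log2 ratio of 0.99. The calls over all probes fell too, from 1455 higher and 1368 lower to 419 higher and 530 lower. With each array scaled to its median, 1 probe was higher (CCND1) and 5 were lower in MDS-L cells. Among all probes of that pair 668 were then higher and 5675 were lower. The share of increases among all calls was 10.5% with that scaling, against 51.5% as reported, 66.4% with each pair centred and 49.4% with quantile normalization. In MDS-L/CDA cells that share was 43.6% as reported, 35.8% with median scaling, 27.1% with no scaling and 24.9% with normexp. The median log2 ratio of the genes in MDS-L cells, 0.01 as reported, was -0.53 with median scaling, 0.26 both with quantile normalization and in the value table, and -0.29 with signal required on both arrays. The median of MDS-L/CDA over MDS-L in vehicle, 0.12 as reported, was -0.41 with median scaling and -0.25 with no scaling. With AZA it was 0.43 as reported, -0.076 with no scaling, 0.15 both with quantile normalization and in the value table, and 0.20 with the pair centred. At a ratio of 1.5, 6 probes were called in MDS-L cells, 1 in MDS-L/CDA cells and 6 between the lines with AZA, and with no filter on dim probes 1 (CDKN2B) between the lines in vehicle. The share of all probes was not computed for either setting, so these counts have no background beside them. The causes of these moves were not tested. No paired analysis was possible because each condition has 1 array. Signals below a scaled intensity of 8.61 to 13.4 give a bound only, which limits CCND1 and CDKN2B.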
